A study of Rattus with 8 samples.

Results

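miR-9 and miR-124 are the microRNAs most closely tied to neural identity, and their mature arms were followed here in the rat hippocampus after cardiopulmonary bypass with deep hypothermic circulatory arrest (CPB/DHCA). The members are the mature names rno-miR-9a and rno-miR-124 with either arm suffix, each used once, which gave 4 of the 615 mature miRNAs listed, namely rno-miR-9a-5p, rno-miR-9a-3p, rno-miR-124-3p and rno-miR-124-5p (rno stands for the rat and is left out below). The rule uses names only and no measured value.

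A miRNA is cut from a hairpin precursor, and either arm of the hairpin can be loaded into an Argonaute protein, where its seed (bases 2 to 8) pairs with target mRNAs. miR-9 is made in neural progenitors and in neurons. Its 5p arm is known to repress progenitor regulators such as Tlx (Nr2e1) and the silencer REST, and its 3p arm, also called miR-9*, represses the REST partner CoREST (Rcor1). miR-124 is the classical neuronal miRNA, and its 3p arm represses the splicing regulator Ptbp1 and the phosphatase Ctdsp1, which keep neuronal genes low in other cells. Its 5p arm is the passenger arm.

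Sequencing covered hippocampal small RNA of male Sprague-Dawley rats of 9 weeks, in 4 control libraries and 4 CPB/DHCA libraries. All the rats were anaesthetized with sevoflurane, intubated and cannulated, and received acetaminophen for analgesia. In the CPB/DHCA group, rats were cooled on bypass to 18 °C over 30 min, had their circulation arrested for 30 min, and were then rewarmed, whereas the sham-operated controls received neither CPB nor DHCA. Hippocampi of both groups were taken 24 h after the procedure, and rats that died before then were excluded by the study, so the CPB/DHCA group holds survivors. The labels do not say whether a library is 1 rat or a pool, so p-values measure the spread between these libraries.

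The sequences of the members are shown as deposited, 5′ to 3′, with the seed in capitals, because the arms of one hairpin carry unrelated seeds and are counted apart.
miR-9a-5p: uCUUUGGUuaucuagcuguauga
miR-9a-3p: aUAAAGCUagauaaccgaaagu
miR-124-3p: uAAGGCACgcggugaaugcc
miR-124-5p: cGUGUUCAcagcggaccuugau
The 4 seeds differ from one another, and none of the other mature miRNAs listed has any of them at bases 2 to 8. No other listed sequence is identical to, contains or is contained in one of these 4, so their tags were not divided among such copies in the table. Sequences that differ from them at single bases were not searched for. The miR-9a arms are poor in G and C, at 34.8% for the 5p arm and 31.8% for the 3p arm. The miR-124 arms have 60.0% (3p) and 54.5% (5p), against a median of 47.8% over all the listed miRNAs. Each of the 4 is assigned to 3 precursors, rno-mir-9a-1 to rno-mir-9a-3 or rno-mir-124-1 to rno-mir-124-3, and its counts are repeated on each precursor line, so the tags do not tell the loci apart. RefSeq of the GRCr8 assembly names these genes Mir9-1, Mir9-2 and Mir9-3, and Mir124-1, Mir124-2 and Mir124-3. Mir9-2 lies within the host gene Mir9-2hg and Mir9-3 within the long noncoding Mir9-3hg. Each miR-9 gene also overlaps a Mir3597 gene, for which RefSeq gives miR-9b as a synonym.

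Control libraries held 620133 to 772840 counts in total, and CPB/DHCA libraries 508574 to 672378. Levels are given as CPM, the tags of a miRNA per 1000000 listed miRNA tags after TMM scaling (trimmed mean of M values), and since each tag is 1 small RNA of similar length, no length correction is needed. Ligation and PCR can favour some sequences over others, so levels of different miRNAs are approximate, whereas the same miRNA can be compared between libraries. Library CPB/DHCA 3 stood apart from the rest. Its 4 oligodendrocyte miRNAs summed to 23257 CPM, against 6499 to 8116 in the control libraries. The most abundant of them, miR-219a-2-3p, had 19839 CPM there, 10066 CPM in CPB/DHCA 1 and 4481 to 6795 CPM in the others. The neuron-enriched miR-128-3p of CPB/DHCA 3 had 31189 CPM, against 46645 to 109228 in the control libraries. The other 12 neuron-enriched miRNAs summed to 15373 CPM there, against 13126 to 15197 in the control libraries. That sum includes miR-7a-5p at 5384 CPM and miR-7b at 1830 CPM, each the highest of the 8 libraries. Of the 13 neuron-enriched miRNAs, 9 were below their median over the 8 libraries in CPB/DHCA 3, and 4 were above it. Control 2 stood apart in the mural miR-143-3p, at 6155 CPM against 1967 to 3281 in the other libraries. It did not in the mural miR-199a-5p, which had 148 CPM in control 2 and 148 CPM in control 1. Results are therefore also given without the library that bears on them. In bulk tissue, fewer cells of a type and less RNA per cell cannot be told apart.

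rno-miR-9a-5p was the most abundant miRNA in each of the 8 libraries, and its level differed little between the groups. It was counted 130849, 151101, 152138 and 154573 times in control libraries 1 to 4, which is 199693, 180787, 210984 and 247008 CPM. In CPB/DHCA libraries 1 to 4 it was counted 135922, 101858, 103908 and 156470 times, which is 199148, 204022, 148403 and 278206 CPM. The CPB/DHCA group held both the lowest value (library 3) and the highest (library 4), and the control values lay between them. This single miRNA took 19.1% to 24.9% of the listed tags of a control library, and 16.8% to 24.8% of those of a CPB/DHCA library. The log2 fold change, CPB/DHCA over control, was -0.02 (standard error 0.17, edgeR quasi-likelihood test with Benjamini-Hochberg adjustment, adjusted p = 0.998). The 95% interval of the fold change was -0.40 to 0.37 on the log2 scale in that fit, while a change of 1.5 times lies at 0.58. The interval obtained by inverting the exact permutation test, which does not borrow spread from other miRNAs, was wider, at -0.73 to 0.62. A change of 1.5 times is inside it. Exact p-values move in steps, so its coverage is at least 95%, which also widens it. Without CPB/DHCA 3 the log2 fold change was 0.12, and without CPB/DHCA 4 it was -0.19, so the sign rests on single libraries.

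rno-miR-9a-3p was far less abundant than its partner arm and equally close between the groups. Control libraries 1 to 4 had 3652, 2706, 3497 and 2787 CPM, from 2393, 2262, 2522 and 1744 tags. CPB/DHCA libraries 1 to 4 had 3270, 3341, 2588 and 3211 CPM, from 2232, 1668, 1812 and 1806 tags. The groups overlapped, with the lowest value again in CPB/DHCA 3. The mean was 3161 ± 483 CPM (SD, n = 4) among controls, against 3103 ± 347 (SD, n = 4) after CPB/DHCA. The log2 fold change was -0.03 (standard error 0.15), with a 95% interval of -0.37 to 0.31 from edgeR and -0.49 to 0.30 from the inverted permutation test, and neither interval reached a change of 1.5 times. Without CPB/DHCA 3 the log2 fold change was 0.05.

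rno-miR-124-3p had a lower mean in the CPB/DHCA group, but the groups overlapped and the difference did not pass the test. Control libraries 1 to 4 had 7834, 4432, 7062 and 7215 CPM, from 5133, 3704, 5092 and 4515 tags. CPB/DHCA libraries 1 to 4 had 5411, 5681, 2978 and 5690 CPM, from 3693, 2836, 2085 and 3200 tags. Control libraries 1, 3 and 4 were above all the CPB/DHCA libraries, and control 2 was below 3 of them, so the groups overlapped. The means were 6635 ± 1507 CPM (SD, n = 4) and 4940 ± 1314 (SD, n = 4). The log2 fold change was -0.43 (standard error 0.24, edgeR, unadjusted p of 0.11, adjusted p = 0.72), with a 95% interval of -0.96 to 0.11 that includes a fall of 1.5 times. The interval from the inverted permutation test was -1.39 to 0.36. The exact two-sided permutation test gave p = 0.171, where 0.0286 is the smallest p that 4 libraries against 4 allow.

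Single libraries set the size of the miR-124-3p difference. Without CPB/DHCA 3 the log2 fold change was -0.24 (edgeR, unadjusted p of 0.23, adjusted p = 0.95). Without control 2 it was -0.56 (edgeR, unadjusted p of 0.025, adjusted p = 0.74), which is just short of a change of 1.5 times. Both libraries also had the lowest levels of miR-128-3p, a neuron-enriched miRNA that restrains excitability, at 31189 CPM in CPB/DHCA 3 and 46645 CPM in control 2, against 79982 CPM or more in each of the others. The neuron-enriched list as a whole was not low in control 2. Of its 13 miRNAs, 6 were below their median over the 8 libraries there and 7 above it, against 9 and 4 in CPB/DHCA 3. Control 2 also had the most miR-143-3p and miR-145-5p, both of smooth muscle and fibroblasts, at 6155 and 934 CPM. The part of these levels in the miR-124-3p difference was not tested.

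rno-miR-124-5p, the passenger arm, was rare, and its groups overlapped widely. Control libraries 1 to 4 had 188, 130, 198 and 209 CPM, from 123, 109, 143 and 131 tags. CPB/DHCA libraries 1 to 4 had 130, 192, 84.3 and 188 CPM, from 89, 96, 59 and 106 tags. CPB/DHCA 3 was lowest here too, and CPB/DHCA 1 and control 2 shared nearly the same level. The means were 181 ± 35.1 CPM (SD, n = 4) and 149 ± 51.5 (SD, n = 4), and the log2 fold change was -0.29 (standard error 0.28, edgeR, adjusted p = 0.93). Its 95% interval was -0.92 to 0.35 from edgeR and -1.30 to 0.55 from the inverted permutation test, and both include a fall of 1.5 times. At this depth the counting error of 1 library was about 8.89% for controls and 10.7% after CPB/DHCA, so part of its spread of 19.4% and 34.6% (coefficient of variation) is counting. For miR-9a-5p the counting error was 0.261% and 0.283%, and its spread of 13.3% and 25.8% is between libraries. Without CPB/DHCA 3 the log2 fold change of miR-124-5p was -0.09.

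**Figure D1:**
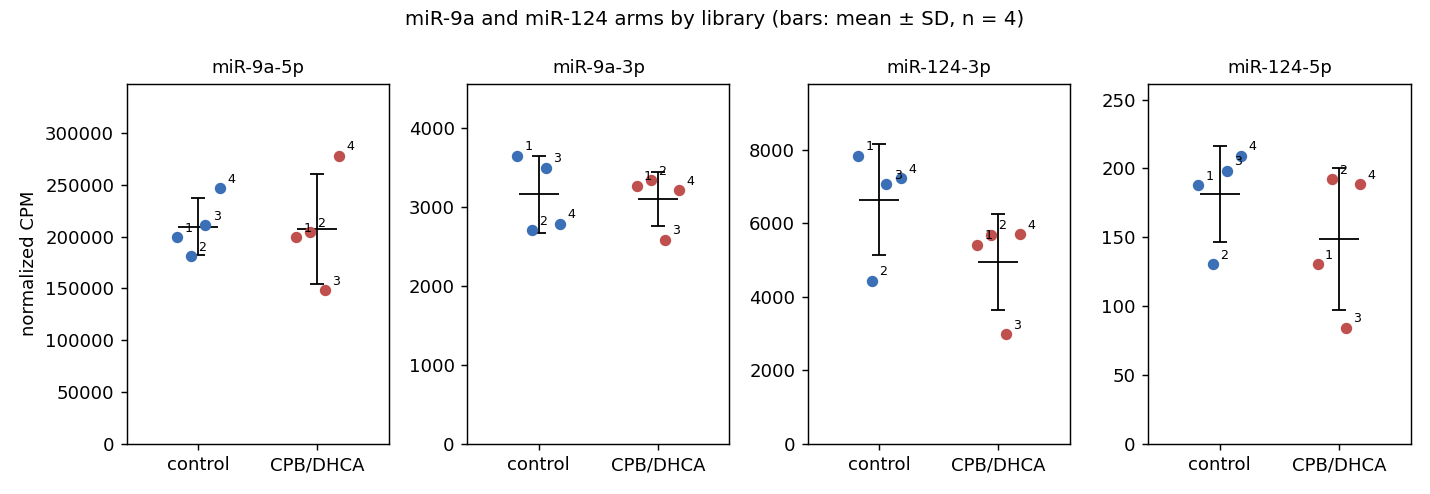
Normalized CPM (vertical axes, each from 0) of miR-9a-5p, miR-9a-3p, miR-124-3p and miR-124-5p in 4 control and 4 CPB/DHCA libraries, numbered by replicate, with the mean and SD of each group. The groups overlap for each arm, and CPB/DHCA 3 is the lowest of the 8 libraries for each arm.

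The order of levels was the same in each of the 8 libraries, miR-9a-5p above miR-124-3p, above miR-9a-3p, above miR-124-5p. miR-124-3p exceeded miR-9a-3p by only 1.15 to 2.59 times, and the least gap was in CPB/DHCA 3. The other gaps were wide, with miR-9a-5p at 25.5 to 49.8 times miR-124-3p, and miR-9a-3p at 13.3 to 30.7 times miR-124-5p. By counts, miR-124-3p ranked 16 to 27 among the miRNAs of each control library and 21 to 39 in the CPB/DHCA libraries, with the lowest rank in CPB/DHCA 3.

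Ratios within a library do not depend on how libraries are scaled, and 3 of them were compared. For miR-9a the 5p arm dominated, at 54.7, 66.8, 60.3 and 88.6 tags for each 3p tag in control libraries 1 to 4 and at 60.9, 61.1, 57.3 and 86.6 in CPB/DHCA libraries 1 to 4. The libraries numbered 4 had the highest ratio in each group, and the other 6 libraries lay between 54.7 and 66.8. The 3p arm was 1.12% of the miR-9a tags in control 4 (95% Wilson interval 1.06% to 1.17%) and 1.14% in CPB/DHCA 4 (1.09% to 1.19%), against 1.47% to 1.80% in the other libraries, intervals that cover counting error only. The difference of the mean log2 ratio was -0.02 (95% interval -0.62 to 0.66, exact two-sided permutation test, p = 0.886, adjusted over the 3 ratios 0.886). Without both libraries numbered 4, an alternative added after the data had been seen, it was also -0.02.

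For miR-124 the 3p arm dominated, and its ratio to the 5p arm did not differ between the groups beyond the spread. After 0.5 was added to each count, there were 41.6, 33.8, 35.5 and 34.3 tags of miR-124-3p for each tag of miR-124-5p in control libraries 1 to 4, and 41.3, 29.4, 35.1 and 30.1 in CPB/DHCA libraries 1 to 4. Libraries numbered 1 were the highest in each group. The difference of the mean log2 ratio was -0.11 (95% interval -0.49 to 0.28, exact two-sided permutation test, p = 0.514, adjusted over the 3 ratios 0.771). In CPB/DHCA 3, where both arms had their lowest levels, the ratio lay within the range of the other libraries.

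The ratio of miR-9a-5p to miR-124-3p was higher on average in the CPB/DHCA group, without separating the groups. Control libraries 1 to 4 had 25.5, 40.8, 29.9 and 34.2 tags of miR-9a-5p for each tag of miR-124-3p, and CPB/DHCA libraries 1 to 4 had 36.8, 35.9, 49.8 and 48.9. Control 2 lay above CPB/DHCA libraries 1 and 2, and otherwise all the CPB/DHCA values were above the control values. The mean log2 ratio was 5.01 ± 0.29 (SD, n = 4) among controls, against 5.40 ± 0.26 (SD, n = 4) after CPB/DHCA. The difference was 0.40 (95% interval -0.18 to 0.96, exact two-sided permutation test, p = 0.114, adjusted over the 3 ratios 0.343). It was 0.32 without CPB/DHCA 3 and 0.51 without control 2 (exact two-sided permutation test, p = 0.0571).

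**Figure D2:**
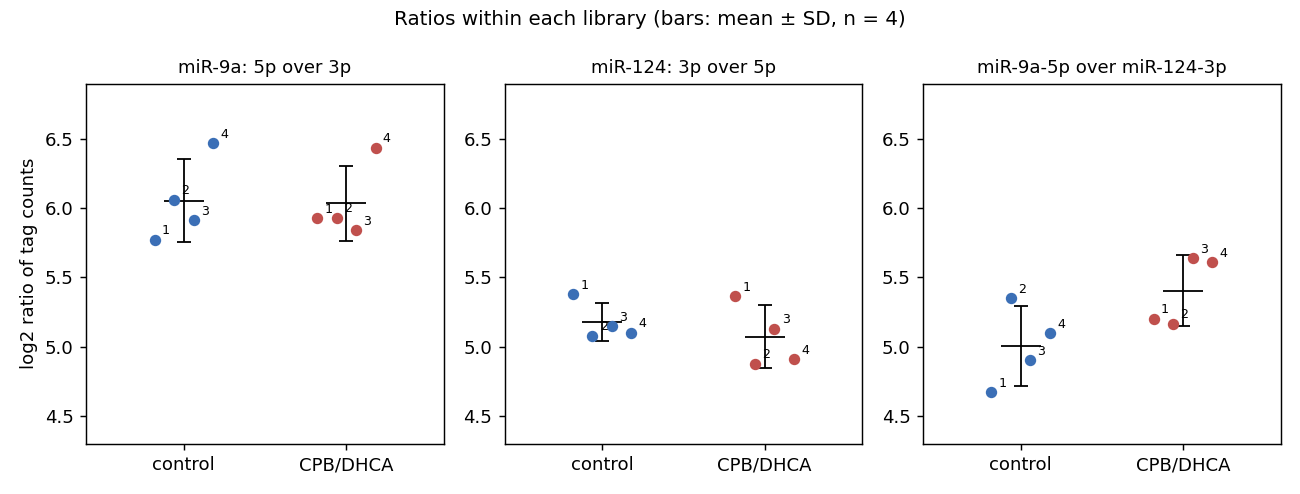
Log2 ratio of tag counts within each library (vertical axis, starting above 0) for the 5p over the 3p arm of miR-9a, the 3p over the 5p arm of miR-124, and miR-9a-5p over miR-124-3p, with the mean and SD of 4 control and 4 CPB/DHCA libraries. The 2 libraries numbered 4 are highest for miR-9a, and the third ratio has means of 5.01 and 5.40 with overlapping groups.

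Against the whole table, none of the 4 members was called. The thresholds of the study, a change of 1.5 times or more with an unadjusted p up to 0.05, were passed by 7.28% of the 467 miRNAs tested with edgeR, and by 0 of the 4 members. An unadjusted p up to 0.05 alone was reached by 8.35% of all, and by 0 of the 4 members with edgeR, DESeq2 or limma on log2(TPM + 1). An adjusted p under 0.05 was reached by 0.214% of all and by 0 of the 4. Groups that did not overlap were found for 4.71% of the miRNAs tested and for 0 of the 4 members. By p, miR-124-3p ranked 70 of 467, miR-124-5p 166, miR-9a-3p 398 and miR-9a-5p 425. All 4 log2 fold changes were negative, as were 276 of the 467, whose median was -0.05. With the size factors of DESeq2 the sign of both miR-9a arms turned, while with upper quartile factors or plain library totals it did not.

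**Figure D3:**
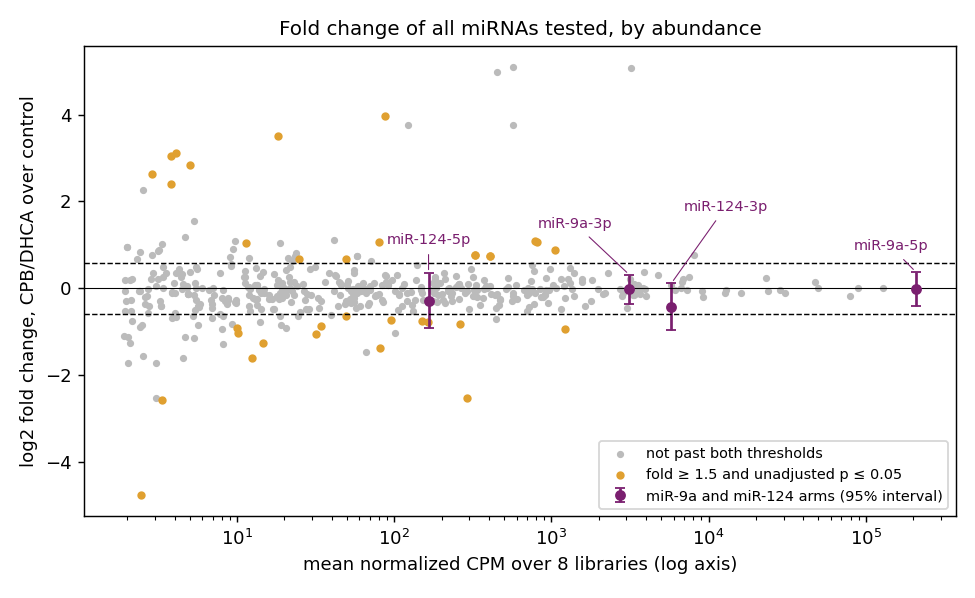
Log2 fold change, CPB/DHCA over control (vertical axis), against mean normalized CPM (horizontal log axis) for the 467 miRNAs tested, with the 4 arms drawn with their 95% intervals and dashed lines at a change of 1.5 times. None of the 4 points lies beyond a dashed line, and the intervals of miR-124-3p and miR-124-5p cross the lower one.

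Of the other miRNAs enriched in neurons, none was called either. Of 13 neuron-enriched miRNAs, 0 passed both thresholds in either direction, against 7.28% of all the miRNAs tested, and 9 had a negative log2 fold change, with a median of -0.10. The most abundant of them were miR-128-3p (log2 fold change -0.17), the activity-regulated miR-132-3p (-0.16), miR-129-5p (-0.11) and miR-7a-5p (0.34). miR-137-3p, which acts in neuronal maturation, averaged 1343 CPM among controls and 971 CPM after CPB/DHCA (a log2 fold change of -0.47), and its groups did not overlap, though its change was under 1.5 times (edgeR, unadjusted p of 0.026, adjusted p = 0.53). It was singled out after its values had been seen. In CPB/DHCA 3, 9 of the 13 were below their median over the 8 libraries, a count that ranged from 2 to 10 over the libraries and was highest in control 1, and miR-7a-5p was 1.57 above its median on the log2 scale there.

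Oligodendrocyte miRNAs varied in the opposite direction in the library with the least miR-124. Of 4 in the list, 1 passed both thresholds upwards, against 3.85% of all the miRNAs tested, and the median log2 fold change was 0.76. This was miR-219a-5p (log2 fold change 1.08, edgeR, adjusted p = 0.53), whose groups overlapped (exact two-sided permutation test, p = 0.143). In CPB/DHCA 3, miR-124-3p was 0.93 below its median over the 8 libraries on the log2 scale (-0.93), miR-124-5p -1.15, miR-9a-5p -0.44 and miR-9a-3p -0.32. In the same library, miR-219a-5p was 1.82 above its median and miR-219a-2-3p 1.70 above. The summed oligodendrocyte miRNAs ranged from 5362 to 23257 CPM in the CPB/DHCA group, and none of the 4 was at 0 in any library. CPB/DHCA 1 had the next highest miR-219a-5p, at 1178 CPM, together with the next lowest miR-124-5p of its group, while its miR-124-3p, at 5411 CPM, was close to that of CPB/DHCA libraries 2 and 4. The part of these oligodendrocyte levels in the miR-124 result was not tested.

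The lists for other cell types were summed in the same way. Leukocyte and microglial miRNAs summed to 487 to 707 CPM in a control library and to 524 to 626 CPM in a CPB/DHCA library, with miR-223-3p and miR-155-5p at 0 in some libraries, and 0 of 5 passed both thresholds. Summed endothelial miRNAs ranged from 2105 to 2634 CPM and from 2037 to 2488, and 0 of 2 passed. The 3 mural and fibroblast miRNAs tested summed to 2344 to 7237 CPM in the control libraries, with the highest sum in control 2, and to 2321 to 3762 CPM in the CPB/DHCA libraries. Of them, miR-199a-5p passed downwards, against 3.43% of all the miRNAs tested (log2 fold change -1.38, edgeR, adjusted p = 0.53). The 3 choroid plexus and ependymal miRNAs summed to 542 to 1179 CPM in a control library. In a CPB/DHCA library they summed to 461 to 825 CPM, and 0 of 3 passed. Of 4 erythrocyte miRNAs 3 passed upwards (miR-144-3p, miR-144-5p and miR-451-5p), against 3.85% of all the miRNAs tested. Together these 3, summed because they passed, had 0 to 10.7 CPM in the control libraries and 28.0 to 64.5 CPM in the CPB/DHCA libraries. Each was at 0 in some control libraries. The other list member, miR-486, was more abundant and did not rise, with means of 113 CPM and 103 CPM (log2 fold change -0.13). All 4 summed to 96.9 to 136 CPM in the control libraries and to 104 to 190 CPM in the CPB/DHCA libraries, so the whole list overlapped. None of the 3 passed when p was adjusted (edgeR, smallest adjusted p = 0.077, for miR-144-3p). The part of erythrocyte miRNAs in the levels of the members was not tested.

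**Figure D4:**
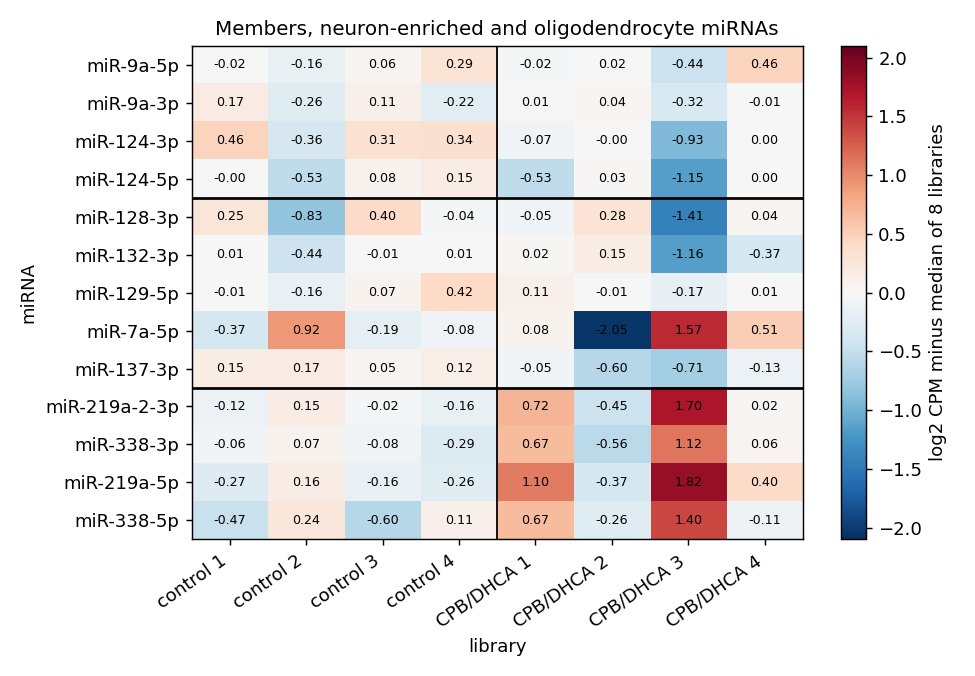
Log2 CPM of each miRNA minus its median over the 8 libraries (colour and printed value) for the 4 members (top), the neuron-enriched miR-128-3p, miR-132-3p, miR-129-5p, miR-7a-5p and miR-137-3p (middle) and 4 oligodendrocyte miRNAs (bottom). CPB/DHCA 3 is low for the members, at -0.93 for miR-124-3p, and high for the oligodendrocyte miRNAs, at 1.82 for miR-219a-5p.

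The patterns of the members over the 8 libraries were compared with those of 246 other miRNAs with a mean of at least 50 CPM, as a description. All values share the libraries and the TMM scaling, and the likest of 246 are high by choice. miR-124-3p was most like the endothelial miR-126a-5p (Pearson r = 0.96, Spearman rho 0.90), its own passenger arm miR-124-5p (r = 0.92, rho 0.71) and miR-128-3p (r = 0.91, rho 0.69). After the 2 libraries farthest from the median of miR-124-3p were left out, these r were 0.87, 0.82 and 0.75. For miR-124-5p the same names were found, with miR-126a-5p at r = 0.94, miR-124-3p at 0.92 and miR-128-3p at 0.90. The other endothelial miRNA, miR-126a-3p, differed from miR-126a-5p in CPB/DHCA 3. There it was 0.13 above its median over the 8 libraries on the log2 scale, while miR-126a-5p was at -0.42.

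The arms of miR-9a did not track each other in this way. Between miR-9a-5p and miR-9a-3p, r was 0.38 over the 8 libraries, and it was -0.10 without the 2 libraries farthest from the median of miR-9a-5p. miR-9a-3p was most like let-7a-5p (r = 0.93), miR-125a-5p (0.91) and miR-384-3p (0.90), all of which kept r of 0.82 or more without its 2 farthest libraries. miR-9a-5p was most like miR-374-3p (r = 0.82), miR-124-5p (0.81) and miR-344b-1-3p (0.76), which fell to 0.47, 0.73 and 0.21 without its 2 farthest libraries, so likeness to miR-374-3p and miR-344b-1-3p rests on those libraries.

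**Figure D5:**
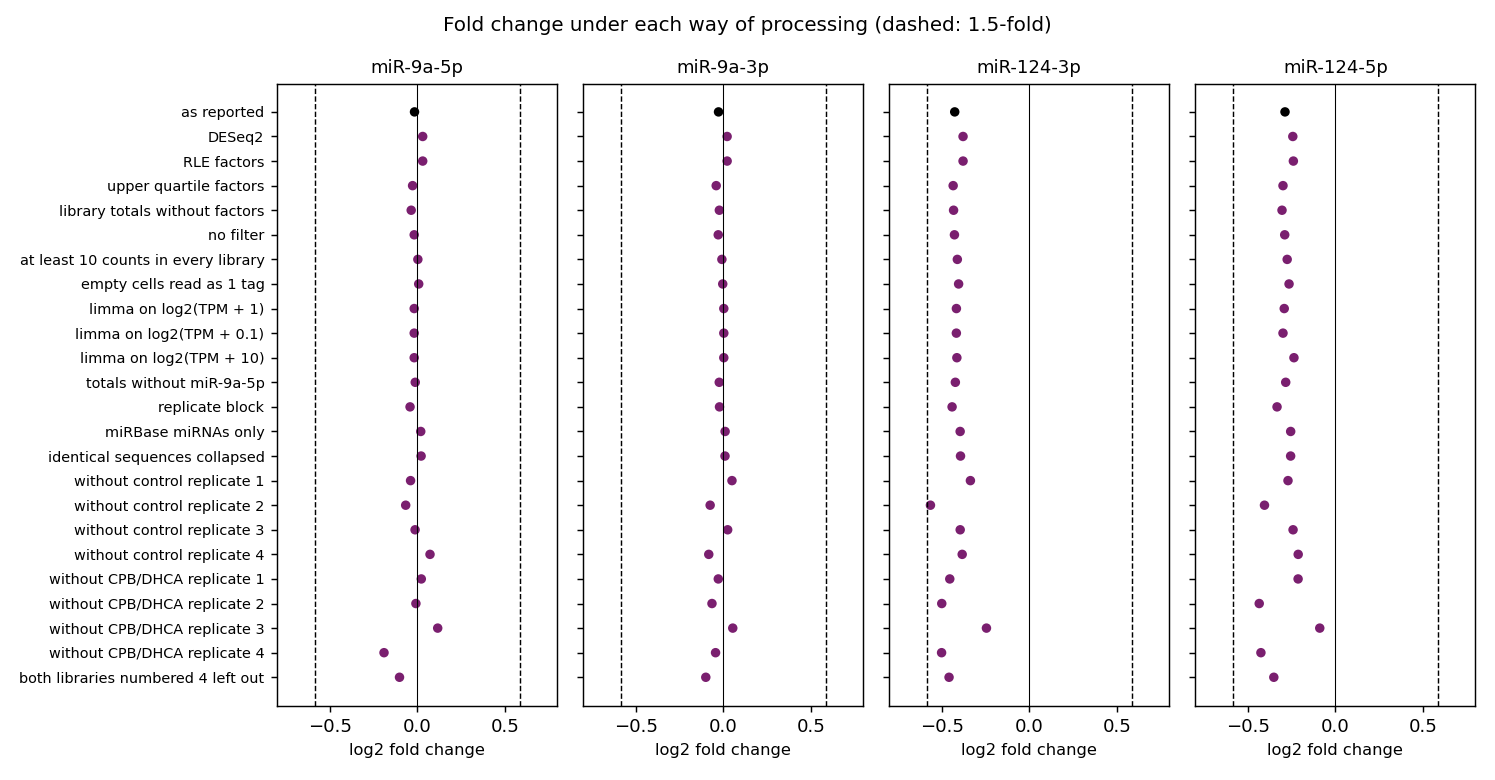
Log2 fold change, CPB/DHCA over control (horizontal axes), of the 4 arms under each way of processing or with libraries left out (rows), with dashed lines at a change of 1.5 times. Both miR-9a arms lie on either side of 0, between -0.19 and 0.12 for miR-9a-5p, while miR-124-3p stays negative, between -0.56 and -0.24, and no point passes a dashed line.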

How the data were processed

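Adapters were removed by the authors with cutadapt 1.9.3, and Novoalign 3.02.12 then aligned the reads to miRBase precursors together with others that miRDeep2 predicted from the pooled reads. Their processing notes name rn6. The deposited counts are raw tag counts per mature miRNA. The deposited normalized score is TPM, which the authors define per 1000000 aligned miRNA tags and gave in whole numbers. It gives miR-9a-5p 44968 to 63005 TPM, well under its CPM. With its counts this implies 1959335 to 3018699 aligned tags in a library, more than the 508574 to 772840 listed. Shares above are of the listed tags, and the cause of the gap was not tested. Repeated lines of a mature miRNA never differed and were used once. Of 4920 cells 1175 were empty, the smallest listed count was 2, and an empty cell was read as 0; none of the members' cells was empty.

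Counts were fitted in R 4.3.3 with edgeR 4.0.16 (TMM factors, glmQLFit and glmQLFTest) over 467 miRNAs (a sum of 10 counts or more, listed in 4 libraries or more), and p was adjusted by Benjamini and Hochberg over all of them. Standard errors and 95% intervals come from that fit. Exact two-sided permutation tests run over the 70 assignments of libraries (log2(CPM + 0.5) or log2 ratios) and were inverted for intervals. Python 3.11.15 with scipy 1.17.1 was used for the rest, DESeq2 1.42.0 and limma 3.58.1 for alternatives. The procedure was tested on simulated counts. The study names thresholds but no test for the counts.

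The text names the members, for each the 3 miRNAs with the highest Pearson r, and abundant members of the lists. Those named after their values were seen are miR-137-3p, miR-7b, miR-199a-5p, miR-223-3p, miR-155-5p, miR-143-3p, miR-145-5p and the erythrocyte miRNAs. The members and lists were chosen with earlier results of these data known. Replicate numbers were not used as a block, since same-numbered libraries deviated together with correlations of 0.18, -0.04, -0.05 and 0.44. All the libraries carry the same batch label.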

Additional observations from a re-analysis of the deposited data

Results flagged for a closer look

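In 14 groups of 4 libraries (the 4 arms and 3 ratios in each group), the gap between an extreme library and its nearest neighbour, as a share of the range of its group, was set against Dixon's critical value of 0.829, which chance passes in about 1 group of 20. The gap passed in 2 groups. For miR-124-3p in the CPB/DHCA group it was 0.897, taken on CPM, because CPB/DHCA 3 had 2978 CPM and the other libraries 5411 to 5690. For the arm ratio of miR-9a in the CPB/DHCA group it was 0.848, taken on the log2 ratios. There CPB/DHCA 4 had 86.6 tags of the 5p arm for each tag of the 3p arm and the others 57.3 to 61.1. Control 4 had a similar ratio of 88.6.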

How the results depend on the processing

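No member passed both thresholds under any alternative run, and the fold changes of miR-124-3p and miR-124-5p and the ratio of miR-9a-5p to miR-124-3p kept their direction throughout. With 1 library left out, the log2 fold change ranged from -0.56 to -0.24 for miR-124-3p, from -0.43 to -0.09 for miR-124-5p, from -0.19 to 0.12 for miR-9a-5p and from -0.0826 to 0.0544 for miR-9a-3p. The arm ratio of miR-9a ranged from -0.15 to 0.12, that of miR-124 from -0.20 to -0.04 and the ratio of miR-9a-5p to miR-124-3p from 0.29 to 0.51. The sign of miR-9a-5p turned with DESeq2 (0.0316), with its size factors in edgeR (0.0316), with at least 10 counts in every library (0.0040), with empty cells at 1 tag (0.0088), with miRBase miRNAs only (0.0205) and with identical sequences collapsed (0.0226). The sign of miR-9a-3p turned with DESeq2 (0.0222), its size factors (0.0224), limma on log2(TPM + 1), + 0.1 and + 10 (0.0033 each), miRBase miRNAs only (0.0107) and identical sequences collapsed (0.0101). The 34 miRNAs past both thresholds became 21 with at least 10 counts in every library, 12 with limma on log2(TPM + 10), 19 with miRBase miRNAs only, and 18 to 44 with 1 library left out; the cause was not tested. With the replicate block the log2 fold change was -0.44 for miR-124-3p, -0.33 for miR-124-5p, -0.04 for miR-9a-5p and -0.02 for miR-9a-3p, and 31 miRNAs passed. Depth limits miR-124-5p most, with 59 to 143 tags in a library.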
